A study of Mus musculus with 4 samples.

Results

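The insulin-like growth factor (IGF) genes described here are 9 genes in 3 roles: the binding proteins Igfbp2, Igfbp3, Igfbp4, Igfbp5 and Igfbp7, the receptor Igf1r, and the receptor substrates Irs1, Irs2 and Irs4. They were chosen by gene name, and the choice was made with earlier results of these same arrays known, in which Irs4, Igfbp3 and Igfbp5 were among the genes furthest apart between genotypes. Their differences are therefore given as descriptions. The annotation used here named 16 probe sets for 7 of the 9 genes, out of 17097 genes with a probe set of their own, and no probe set for Igfbp7 or Irs2, which have no value below. Igfbp4 had 6 probe sets, Igf1r 4, Irs4 2, and Igfbp2, Igfbp3, Igfbp5 and Irs1 had 1 each.

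The arrays measured 4 groups of mouse cells with 1 array in each: Snai1 knockout (KO) Flk1+ cells, control (F/F) Flk1+ cells, Snai1 knockout Flk1- cells and control Flk1- cells. Both embryonic stem cell lines had formed embryoid bodies in hanging drops and suspension without a directed treatment, and the bodies were dissociated at day 4 and sorted with an antibody to Flk1, the VEGF receptor encoded by Kdr. All groups share this culture and sort. The labels do not say how many clones or cultures stand behind an array, nor what the allele F/F carries, and for the knockout Flk1- cells the description names day 4 and the source name day 5.

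IGF1 and IGF2 are growth factors that signal through the receptor tyrosine kinase IGF1R, which phosphorylates insulin receptor substrate (IRS) proteins and thereby engages PI3 kinase and AKT. Secreted IGF binding proteins hold IGFs in the extracellular space, where they can keep the ligand from the receptor or deliver it, and proteases that cut the binding proteins free the ligand. In the mouse embryo Igf2 is the main IGF of early development, and SNAI1 is a zinc finger repressor that binds E-box sequences and acts in epithelial to mesenchymal transition, a step in mesoderm formation.

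The promoters of the 5 members that were 2-fold or more apart between genotypes in at least 1 sorted fraction are shown because the knocked-out gene encodes a repressor that binds E-boxes. Each is the 250 bases before a transcript start, 5′ to 3′ on the gene's strand, from RefSeq on build GRCm38.p6, with every E-box (CANNTG, which reads the same pattern on both strands) in capitals. Igfbp3 lies on the minus strand at chr11:7213924-7214173, Igfbp2 on the plus strand at chr1:72824230-72824479, Igfbp5 on the minus strand at chr1:72874866-72875115, Irs4 on the minus strand at chrX:141725218-141725467 and Igfbp4 on the plus strand at chr11:99040994-99041243.
Igfbp3: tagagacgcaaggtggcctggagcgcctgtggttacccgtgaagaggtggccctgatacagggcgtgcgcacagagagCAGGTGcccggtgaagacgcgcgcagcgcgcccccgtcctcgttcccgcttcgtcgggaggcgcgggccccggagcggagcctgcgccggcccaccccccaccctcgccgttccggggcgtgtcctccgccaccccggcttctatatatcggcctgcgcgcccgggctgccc
Igfbp2: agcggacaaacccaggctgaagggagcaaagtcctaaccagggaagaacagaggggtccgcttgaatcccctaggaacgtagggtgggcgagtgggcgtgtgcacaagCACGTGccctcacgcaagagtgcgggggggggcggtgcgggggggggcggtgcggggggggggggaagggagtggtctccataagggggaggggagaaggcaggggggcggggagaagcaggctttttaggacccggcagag
Igfbp5: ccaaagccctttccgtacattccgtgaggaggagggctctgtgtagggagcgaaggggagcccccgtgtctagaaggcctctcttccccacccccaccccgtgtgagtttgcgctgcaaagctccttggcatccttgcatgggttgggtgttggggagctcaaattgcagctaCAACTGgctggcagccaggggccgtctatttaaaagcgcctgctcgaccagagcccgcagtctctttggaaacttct
Irs4: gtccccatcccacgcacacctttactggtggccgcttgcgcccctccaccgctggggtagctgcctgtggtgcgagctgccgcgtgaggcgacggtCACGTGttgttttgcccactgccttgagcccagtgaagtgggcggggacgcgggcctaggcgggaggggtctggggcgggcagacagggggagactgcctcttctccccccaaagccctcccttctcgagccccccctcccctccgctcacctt
Igfbp4: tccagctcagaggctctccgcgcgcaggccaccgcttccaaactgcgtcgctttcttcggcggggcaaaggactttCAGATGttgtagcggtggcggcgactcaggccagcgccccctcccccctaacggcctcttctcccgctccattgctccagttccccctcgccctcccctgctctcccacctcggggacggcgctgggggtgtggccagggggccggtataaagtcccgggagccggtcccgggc

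Each of these windows held 1 E-box, and they differed in its 2 middle letters. The Igfbp3 window held CAGGTG, the form that SNAI1 is known to bind, 172 bases before the start. Searched on both strands (CAGGTG or its reverse complement CACCTG), that form was in 1 of the 10 windows searched for the 9 genes. It was in 17.2% of the 32851 windows of the same length in the promoter table. The Igfbp2 and Irs4 windows held CACGTG, 142 and 154 bases before their starts, as did those of Irs1 and Irs2. Igfbp2 has a second start in RefSeq, whose window at chr1:72825137-72825386 is not printed and held CATTTG and no CACGTG. That palindrome was in 4 of the 10 windows and in 6.02% of all windows, while any CANNTG was in 8 of the 10 and in 66.2% of all. The Igfbp3 and Igfbp4 windows lie inside the annotated genes (chr11:7206086-7215498 and chr11:99040005-99052655), and the bases before the outer 5′ ends of these genes were not searched. All matches given here are of letters in short windows and show no binding.

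The deposited values are log2 expression, so a difference of 1 is 2-fold. A gene was taken as having signal above a floor of 3.19, the 40th percentile of all gene values, and a gene was counted as 2-fold apart where the difference was at least 1 and at least 1 of the 2 arrays was above the floor. With 1 array in each group no difference has a replicate check and no test was run. The number of arrays limits the precision. As a yardstick, 79 receptor genes of the olfactory and related families, silent in most tissues, differed between arrays with an SD of 0.13 to 0.17. For the difference between the 2 genotype differences their SD was 0.20. An SD of mostly silent genes does not measure the spread of expressed genes or the variation between cultures. From 10195 to 10302 genes were above the floor on an array. Kdr was at 9.03 in KO Flk1+ and 8.92 in F/F Flk1+ cells, and at 3.88 in KO Flk1- and 4.55 in F/F Flk1- cells, as the sort labels say. Snai1 was below the floor on every array (1.88, 2.56, 1.94 and 2.42 in the same order), so it does not check the genotype labels. The Gapdh control probes, a measure of RNA quality, were higher at the 3′ than at the 5′ end by 1.47 in KO Flk1+, 2.05 in F/F Flk1+, 1.99 in KO Flk1- and 1.76 in F/F Flk1- cells. Its part in the differences below was not tested.

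In Flk1+ cells, 3 of the binding proteins and the substrate Irs4 were higher without Snai1, while Igfbp4, Igf1r and Irs1 differed by less than 2-fold. Of the 7 measured members, 4 were 2-fold or more higher in KO Flk1+ cells, against 0.873% of the 10655 genes above the floor in that comparison. None (0) of the 7 was 2-fold lower, against 0.976% of those genes. The median difference of the 7 members was 1.30, beside -0.05 for all of these genes. In Flk1- cells 1 member, Igfbp3, was 2-fold higher in the knockout (0.389% of 10533 genes) and 1 member, Igfbp4, was 2-fold lower (0.949% of them), with a median of -0.03 for the members and 0.04 for all genes. Since earlier results were known when the members were picked, these shares are background and support nothing about the family.

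**Figure D1:**
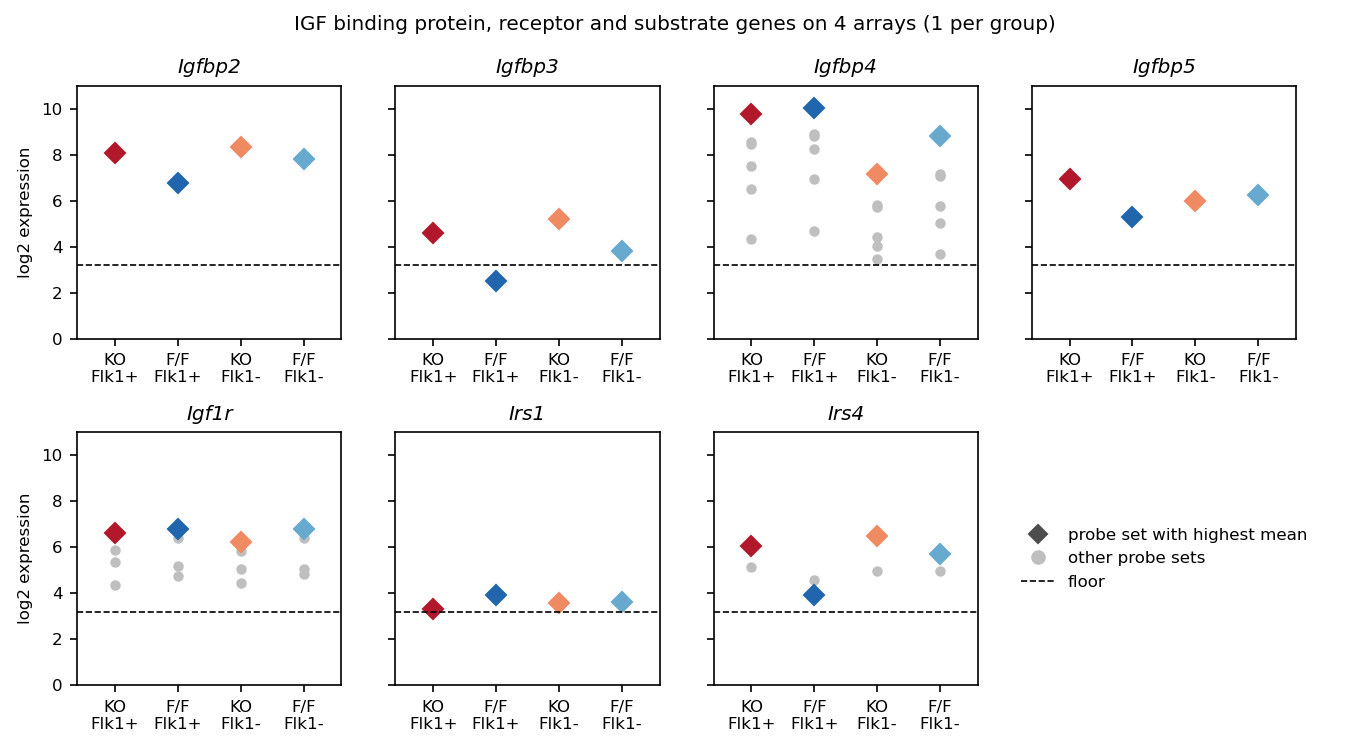
Log2 expression (y axis) of the 7 measured genes on the 4 arrays (x axis), with the probe set of highest mean as coloured diamonds, other probe sets as grey circles and the floor of 3.19 as a dashed line. Igfbp2, Igfbp3, Igfbp5 and Irs4 have their lowest value in F/F Flk1+ cells, and Igfbp4 has its lowest in KO Flk1- cells.

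Igfbp3, the main carrier of IGFs in adult serum, was at 4.58 in KO Flk1+ cells, against 2.49 in F/F Flk1+ cells, and at 5.20 in KO Flk1- cells, against 3.82 in F/F Flk1- cells. It was below the floor in F/F Flk1+ cells and above it on the other arrays. The KO value was at least 2.61-fold that of F/F in Flk1+ cells and 2.61 times that of F/F in Flk1- cells. The deposited difference of 2.09 in Flk1+ cells rests on the value below the floor, and it was 1.39 with that value raised to the floor. In Flk1- cells the difference was 1.38, rank 8 of 10533 genes from the top. It was the only one of the 7 measured members that was 2-fold higher in the knockout in both fractions. Fewer cells that express a gene and less RNA in each cell cannot be told apart in such sorted bulk samples.

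Igfbp2, a binding protein of the embryo, was at 8.06 in KO Flk1+ cells, against 6.76 in F/F Flk1+ cells, and at 8.36 in KO Flk1- cells, against 7.84 in F/F Flk1- cells. Both genotype differences were positive, 1.30 (2.46-fold, rank 52 of 10655) and 0.53 (1.44-fold). The F/F Flk1+ array stood lowest, and the other 3 arrays lay within 0.53 of each other.

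Igfbp5, which also binds extracellular matrix, went with genotype in Flk1+ cells alone by the 2-fold rule. It was at 6.94 in KO Flk1+ cells, against 5.31 in F/F Flk1+ cells, and at 6.01 in KO Flk1- cells, against 6.25 in F/F Flk1- cells. The genotype difference was 1.64 (3.11-fold, rank 25 of 10655) in Flk1+ cells and -0.25 in Flk1- cells. Unlike Igfbp2 and Igfbp3, it was highest in KO Flk1+ cells. Igfbp5 and Igfbp2 are neighbours on chromosome 1 (GRCm38.p6), with Igfbp2 at chr1:72824480-72852474 on the plus strand and Igfbp5 at chr1:72858065-72874865 on the minus strand, their 3′ ends 5590 bases apart and with 0 genes between them. Igfbp3 has the same arrangement with Igfbp1 on chromosome 11, 3539 bases away, and Igfbp1 was below the floor on all 4 arrays (3.14 in KO Flk1+, 3.14 in F/F Flk1+, 2.73 in KO Flk1- and 2.90 in F/F Flk1- cells).

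Igfbp4, a binding protein known mainly as an inhibitor of IGF action, ran the other way. It was at 9.79 in KO Flk1+ cells, against 10.04 in F/F Flk1+ cells, and at 7.15 in KO Flk1- cells, against 8.82 in F/F Flk1- cells. The KO Flk1- array stood far below the other 3. The genotype difference was -0.25 in Flk1+ cells and -1.68 in Flk1- cells (3.19-fold lower, rank 35 of 10533 from the bottom). All 6 of its probe sets were lower in the knockout in both fractions, from -0.71 to -0.25 in Flk1+ cells and from -1.76 to -0.24 in Flk1- cells, where 4 of the 6 were 2-fold lower.

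Igf1r, the signalling receptor, was at 6.64 in KO Flk1+ cells, against 6.81 in F/F Flk1+ cells, and at 6.23 in KO Flk1- cells, against 6.81 in F/F Flk1- cells. These 4 values span 0.58, the smallest range among the 7 measured members. Its 4 probe sets gave genotype differences from -0.49 to 0.15 in Flk1+ cells and from -0.58 to 0.02 in Flk1- cells. In both fractions 3 of the 4 were negative, and none was 2-fold (0 of 4).

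The 2 measured substrates differed from each other. Irs4, an X-linked substrate at chrX:141710998-141725217 on GRCm38.p6, was at 6.06 in KO Flk1+ cells, against 3.91 in F/F Flk1+ cells, and at 6.49 in KO Flk1- cells, against 5.71 in F/F Flk1- cells. The F/F Flk1+ array stood lowest, with the other 3 within 0.77 of each other. The genotype difference of 2.15 in Flk1+ cells (4.45-fold) ranked 3 of 10655 genes, and that in Flk1- cells was 0.77 (1.71-fold). Its second probe set, at 5.13, 4.57, 4.95 and 4.97 in KO Flk1+, F/F Flk1+, KO Flk1- and F/F Flk1- cells, gave only 0.56 and -0.01, so the 2-fold call rests on 1 of its 2 probe sets. Irs1, the widely expressed substrate, was close to the floor at 3.32 in KO Flk1+ cells, against 3.92 in F/F Flk1+ cells, and at 3.58 in KO Flk1- cells, against 3.61 in F/F Flk1- cells. Its differences were -0.60 and -0.03.

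**Figure D2:**
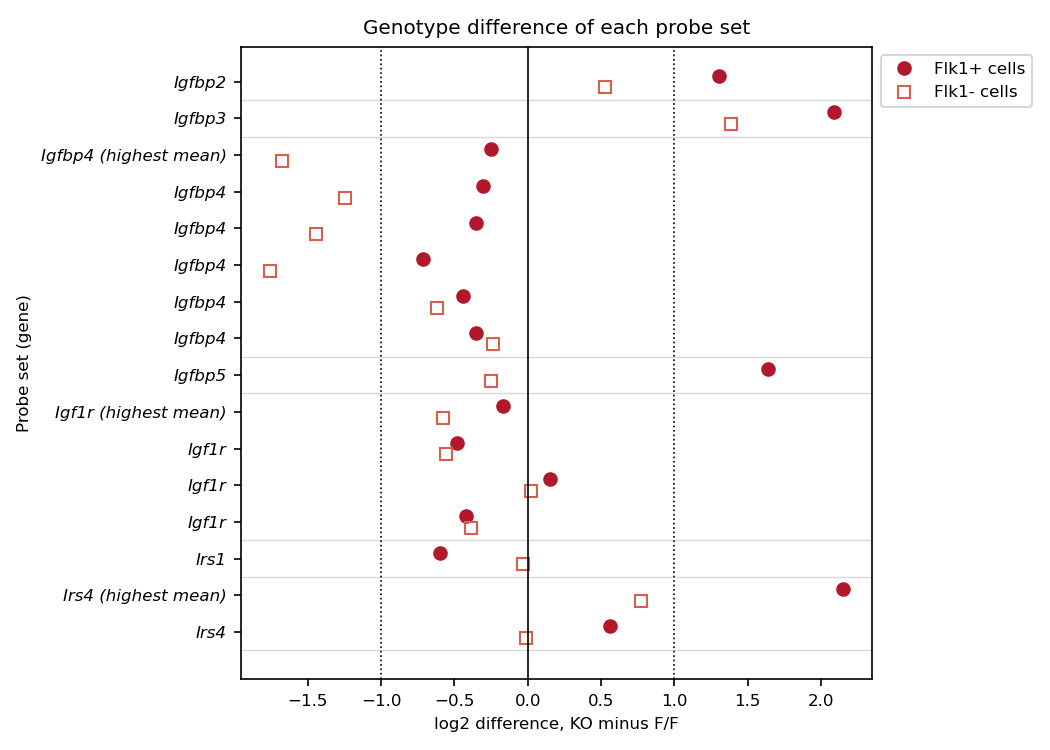
Log2 difference, KO minus F/F (x axis), of each of the 16 probe sets (y axis, by gene), with filled circles for Flk1+ cells, open squares for Flk1- cells and dotted lines at 2-fold. The 6 Igfbp4 probe sets all lie below 0, the 2 Irs4 probe sets differ from each other, and Igfbp5 lies at 1.64 in Flk1+ and -0.25 in Flk1- cells.

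The sort itself separated Igfbp4 from the others. Igfbp4 was higher in Flk1+ than in Flk1- cells by 2.64 in KO cells (6.24-fold, rank 15 of 10688) and by 1.22 in F/F cells (2.32-fold, rank 87 of 10622). All 6 probe sets were positive in both genotypes, with 5 of 6 at 2-fold or more in KO cells (0.89 to 3.50) and 6 of 6 in F/F cells (up to 2.46). In KO cells it was the 1 member that was 2-fold higher, against 1.62% of 10688 genes, and no member (0) was 2-fold lower, against 2.17%. After quantile normalization, centring or cyclic loess the count of members 2-fold higher was 2, since Igfbp5 (0.94 as deposited) then had 1.09 to 1.11. In F/F cells 1 member was 2-fold higher, against 1.2% of 10622 genes, and 3 were 2-fold lower, against 1.51%.

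Those 3 were Igfbp2, Igfbp3 and Irs4. Igfbp2 had sort differences of -0.30 in KO cells and -1.08 in F/F cells, and Irs4 had -0.43 in KO cells and -1.80 in F/F cells, where its second probe set gave 0.18 and -0.39. Igfbp3 had -0.62 in KO cells and -1.33 in F/F cells, but its value in F/F Flk1+ cells was below the floor, so the F/F difference is at least 1.54-fold lower in Flk1+ cells and is not 2-fold by that bound. Igfbp5 had sort differences of 0.94 in KO cells and -0.95 in F/F cells, opposite in sign and both just short of 2-fold. Igf1r had 0.40 and -0.0049, and Irs1 had -0.26 and 0.31, in KO and F/F cells in that order. The median of the 7 members was -0.26 in KO cells and -0.95 in F/F cells, beside -0.08 and -0.01 for all genes. The sort and genotype differences are taken from the same 4 arrays, so a low F/F Flk1+ value enters both.

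**Figure D3:**
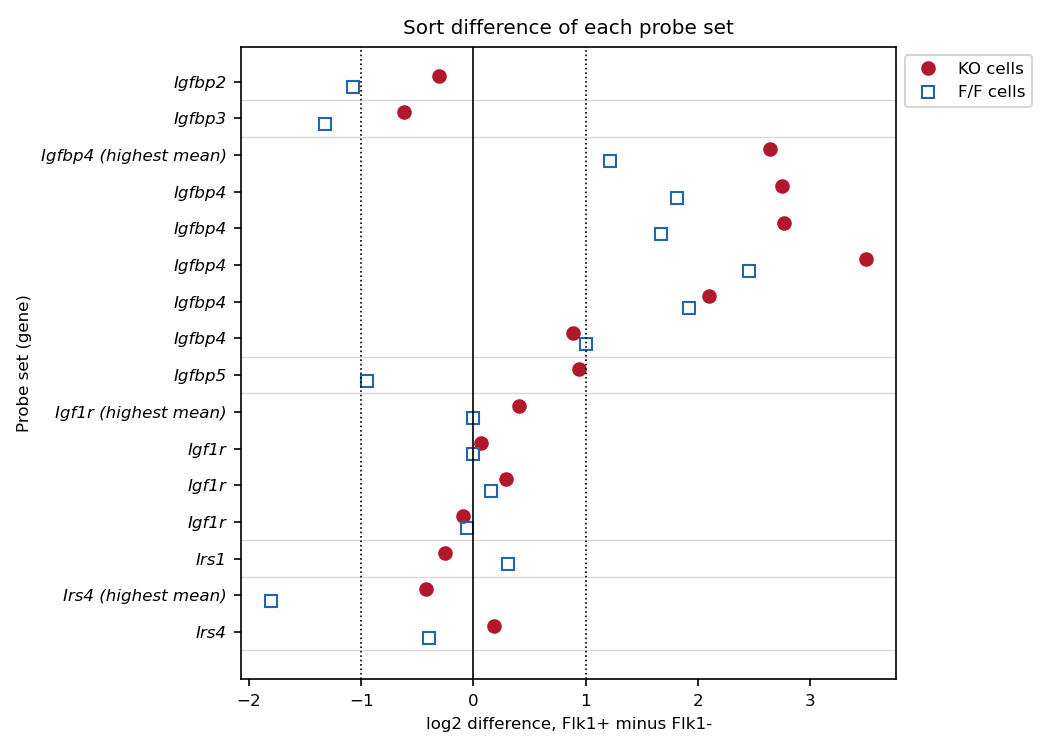
Log2 difference, Flk1+ minus Flk1- (x axis), of each of the 16 probe sets (y axis, by gene), with filled circles for KO cells, open squares for F/F cells and dotted lines at 2-fold. Igfbp4 lies to the right in both genotypes, and Igfbp5 lies at 0.94 in KO and -0.95 in F/F cells.

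Subtracting the genotype difference of Flk1- cells from that of Flk1+ cells gave a positive value for 6 of the 7 members, against 41.3% of 10955 genes. It was at least 1 in the positive direction for 3 members, against 0.749% of those genes, and for none (0) in the negative direction, against 0.831%. Igfbp5 had 1.89 (rank 9 of 10955), Igfbp4 1.43 (rank 23) and Irs4 1.38 (rank 28). The Igfbp4 value came from a larger negative difference in Flk1- cells, and those of Igfbp5 and Irs4 from a larger positive one in Flk1+ cells. Over its 6 probe sets Igfbp4 ranged from -0.11 to 1.43 with 3 of them at 1 or more, and the second probe set of Irs4 gave 0.57. Igfbp2 had 0.77, Igf1r 0.41 and Irs1 -0.57. Igfbp3 had 0.70, but 0.0040 once its F/F Flk1+ value was raised to the floor. A low F/F Flk1+ value enters this difference too, and the members were picked with earlier results known. These shares and ranks, and the shares at other size rules below, are therefore background and support nothing about the family.

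At a size rule of 1.5-fold in either direction, 5 members were apart by genotype in Flk1+ cells and 3 in Flk1- cells, against 7.68% and 5.51% of genes. By sort, 3 were apart in KO cells and 5 in F/F cells, against 15% and 8.25%. At 3-fold the counts by genotype were 3 in Flk1+ and 1 in Flk1- cells, against 0.554% and 0.399%. The 3 in Flk1+ cells were Igfbp3, Igfbp5 and Irs4, and by its bound of at least 2.61-fold Igfbp3 is not 3-fold. By sort, the counts at 3-fold were 1 in KO and 1 in F/F cells, against 1.01% and 0.96%. The 1 in F/F cells was Irs4, whose second probe set gave -0.39 there and 0.56 by genotype in Flk1+ cells. For the difference of differences, 5 members were at 1.5-fold and 1 at 3-fold or more, against 10.9% and 0.228%. The 5 include Igfbp3, which is not among them once its F/F Flk1+ value is raised to the floor.

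Markers of the cell types that a sorted fraction can hold also differed between the arrays. Of 7 measured pluripotency markers, 5 had signal in Flk1+ cells and all 5 were 2-fold higher in KO than in F/F cells, and in Flk1- cells 7 of 7 were higher and 1 was 2-fold higher. Their summed level was 8.37 on the log2 scale in KO Flk1+ cells, against 6.70 in F/F Flk1+ cells, and 10.42 in KO Flk1- cells, against 9.65 in F/F Flk1- cells. Of these, Esrrb and Zfp42 were below the floor in both Flk1+ groups (2.71 and 2.15 in KO, 1.90 and 1.72 in F/F cells). Esrrb was the 1 marker 2-fold higher in KO Flk1- cells (1.72), and its second probe set gave -0.08. Of 8 epithelial markers, 7 were higher in KO Flk1+ cells and 4 of them 2-fold, and all 8 were higher in KO Flk1- cells with 0 at 2-fold. Their summed level was 11.01 in KO Flk1+ cells, against 10.33 in F/F Flk1+ cells, and 11.36 in KO Flk1- cells, against 10.99 in F/F Flk1- cells. By their highest-mean probe sets, Igfbp2, Igfbp3 and Irs4 were lowest in F/F Flk1+ and highest in KO Flk1- cells, as both summed levels were. The pluripotency level was lower in KO Flk1+ than in F/F Flk1- cells, whereas these members were higher. The epithelial summed level was 11.01 in KO Flk1+ and 10.99 in F/F Flk1- cells, while the mean over that list was 7.29 and 7.41. By sort in KO cells, 7 of 7 pluripotency markers were 2-fold lower in Flk1+ cells (median -2.16), and the epithelial markers had a median of -0.53. Igfbp2, Igfbp3 and Irs4 had -0.30, -0.62 and -0.43 there. By sort in F/F cells the medians were -2.76 for pluripotency and -1.39 for epithelial markers. The same 3 members had -1.08, -1.33 (resting on a value below the floor) and -1.80 in F/F cells. The second Irs4 probe set was highest in KO Flk1+ cells (5.13). The part of pluripotent or epithelial cells in the results was not tested.

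Beside Igfbp4, 8 of 10 endothelial and hemangioblast markers were 2-fold higher in Flk1+ than in Flk1- cells in each genotype. Their summed level was 9.99 in KO Flk1+ and 6.43 in KO Flk1- cells, and 10.07 in F/F Flk1+ and 6.92 in F/F Flk1- cells. Pecam1 and Tie1 were the 2 that were not 2-fold higher, and Tie1 was at 2.64 in KO Flk1+ and 3.31 in F/F Flk1+ cells, near or below the floor. Of 10 mesenchymal markers, 9 had signal in Flk1- cells and all 9 were lower in KO than in F/F cells, 4 of them 2-fold, and their summed level was 8.78 in KO Flk1- and 9.75 in F/F Flk1- cells. In Flk1+ cells 8 of 9 were lower in the knockout, 3 of them 2-fold, with summed levels of 9.82 in KO and 10.59 in F/F cells. Acta2 and Zeb1, called 2-fold lower in Flk1- cells, also had probe sets at -0.32 and -0.13 there. Acta2 and Col3a1, called 2-fold lower in Flk1+ cells, also had probe sets at 0.03 and -0.43 there. Of 8 cardiac and lateral plate markers, 8 were lower in KO Flk1- cells and 6 of them 2-fold, with summed levels of 8.23 in KO and 10.16 in F/F cells. In Flk1+ cells, where Igfbp4 differed by -0.25, 7 of 7 were lower in the knockout and 5 of them 2-fold, with summed levels of 8.86 in KO and 10.51 in F/F cells. Myl4, called 2-fold lower in both fractions, had a second probe set at 0.14 in Flk1+ and -0.32 in Flk1- cells. The part of these markers in the Igfbp4 difference was not tested.

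The remaining marker lists are of primitive erythroid, visceral endoderm and fibroblast genes. Of 4 primitive erythroid markers with signal in Flk1+ cells, 3 were 2-fold lower in the knockout, and in Flk1- cells 4 of 5 were, with a summed level of 5.02 in KO Flk1- and 11.19 in F/F Flk1- cells. Visceral endoderm markers had 3 higher and 3 lower in KO Flk1+ cells and 2 higher and 3 lower in KO Flk1- cells, with 1 of them, Ttr, 2-fold lower in both. Ttr was at 4.79 in KO Flk1+ cells, against 6.89 in F/F Flk1+ cells, and at 4.68 in KO Flk1- cells, against 7.36 in F/F Flk1- cells, although its 2 probe sets ranged from -2.10 to -0.60 in Flk1+ cells. Apoe was higher in the knockout by 0.70 in Flk1+ and 0.44 in Flk1- cells. Hnf4a was higher by 0.88 and 0.44, with probe sets from -0.29 to 0.88 and from -0.06 to 0.44. Apoa1 was higher by 0.45 in Flk1+ cells, with probe sets from 0.45 to 1.06. Afp was at 2.89 in KO Flk1+ and 3.29 in F/F Flk1+ cells, and at 2.88 in KO Flk1- and 2.90 in F/F Flk1- cells, close to or below the floor. Of the 8 fibroblast (feeder cell) markers, 4 had signal in Flk1+ cells and all 4 were lower in the knockout, 3 of them 2-fold. By sort in F/F cells 4 of 4 were higher in Flk1+ cells, 3 of them 2-fold. Their summed level was 5.93 in KO Flk1+, 7.58 in F/F Flk1+, 5.77 in KO Flk1- and 6.27 in F/F Flk1- cells. Its highest and lowest arrays were those of Igfbp4, and the part of fibroblasts in the Igfbp4 difference was not tested. The fibroblast genes Thy1, Lum, Dcn and Fbln5 were below the floor on all 4 arrays.

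**Figure D4:**
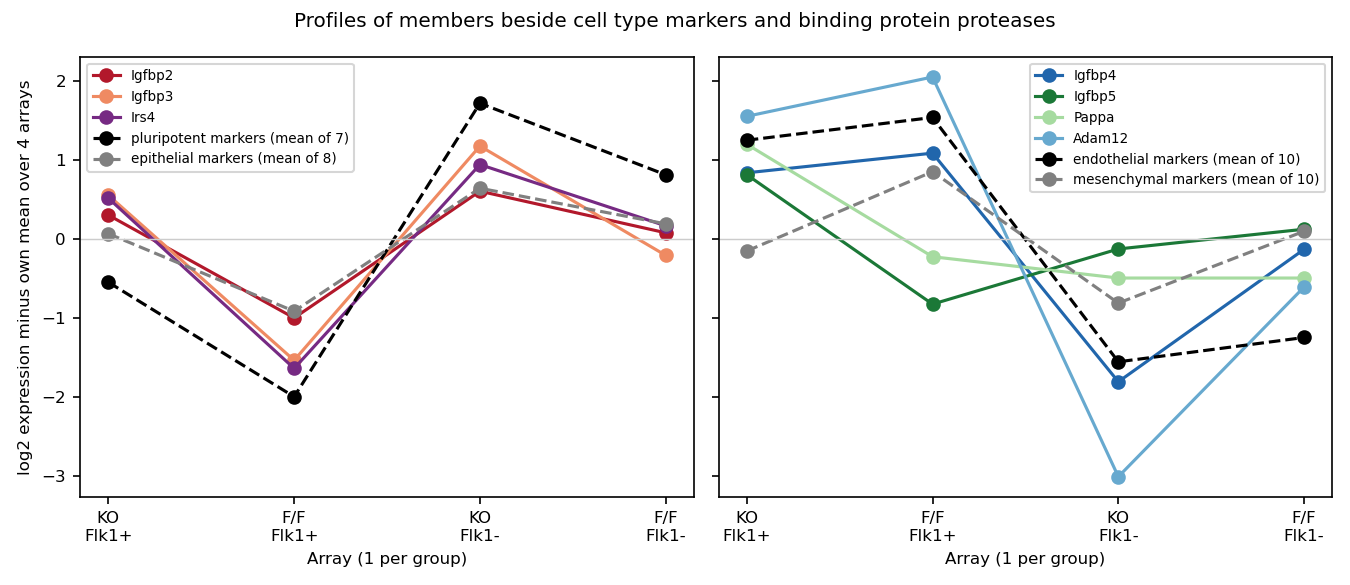
Log2 expression minus each profile's own mean over the 4 arrays (y axis) for the 4 arrays (x axis), with members and proteases as solid lines and marker lists (mean over the list) as dashed lines, which join unordered groups only to guide the eye. At left, Igfbp2, Igfbp3, Irs4 and both marker lists are lowest in F/F Flk1+ and highest in KO Flk1- cells. At right, Igfbp4 and Adam12 are lowest in KO Flk1- cells and Igfbp5 and Pappa are highest in KO Flk1+ cells.

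The genes most like each variable member were found by the distance between 4-array log2 profiles, each centred on its own mean, among 866 named genes with signal and a range of at least 1. With 4 arrays such likeness is a description, and the Igfbp3 profile includes its value below the floor. Partners named below also had values under the floor. These were Prr36 (2.42 in F/F Flk1+), Fam184b (2.56 in F/F Flk1+ and 3.10 in F/F Flk1- cells) and Tgfbi (2.85 in KO Flk1- cells). The Irs4 profile is that of its highest-mean probe set, and its second probe set was highest on another array. Nearest to Igfbp3 were Nptx2, a neuronal pentraxin (distance 0.15), Ascl2, a trophoblast and stem cell transcription factor (0.29), and Fzd5, a Wnt receptor (0.44). Nearest to Irs4 were Pga5, a pepsinogen (0.14), Fzd5 (0.21) and Cer1, a secreted Nodal and BMP antagonist (0.28). Nearest to Igfbp2 were Parm1 (0.089), Prr36 (0.090) and Spint1, an epithelial protease inhibitor (0.099).

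The profiles of Igfbp5 and Igfbp4 had less close partners. For Igfbp5 they were Msi1, an RNA-binding protein of neural progenitors (0.37), Fam184b (0.40) and Elmo1, an engulfment and migration adaptor (0.49). For Igfbp4 they were Tgfbi, a matrix protein (0.65), Tspan18, a tetraspanin (0.68), and Fbn2, a microfibril protein of the embryo (0.76). Igf1r and Irs1 varied by less than 2-fold and were not compared.

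The other pathway lists hold 63 genes, of which 55 had a probe set named here and 37 to 39 had signal in a comparison. Of 39 in Flk1+ cells, 1 was 2-fold higher in the knockout and 0 were lower (0.873% and 0.976% of all genes), with a median of -0.06. Of 38 in Flk1- cells, 0 were higher and 2 lower (0.389% and 0.949% of all genes), with a median of -0.09. By sort, 3 of 37 were 2-fold higher and 1 lower in KO Flk1+ cells (1.62% and 2.17% of all genes), and 2 of 39 were higher and 0 lower in F/F Flk1+ cells (1.2% and 1.51%). With so few genes past 2-fold among all genes, these counts are not a result about the pathway.

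Among ligands, Igf2, the embryonic IGF, was at 10.58 in KO Flk1+ cells, against 10.64 in F/F Flk1+ cells, and at 9.96 in KO Flk1- cells, against 10.45 in F/F Flk1- cells. Its genotype differences were thus -0.06 and -0.48, and its second probe set gave -0.02 and -0.84. By sort in KO cells the same 2 probe sets gave 0.61 and 1.09, on either side of 2-fold. Igf1 was at 4.52 in KO Flk1+ cells, against 3.18 in KO Flk1- cells, and at 4.61 in F/F Flk1+ cells, against 3.20 in F/F Flk1- cells, higher in Flk1+ cells by at least 2.50-fold in KO cells and by 1.41 on the log2 scale in F/F cells. Its 4 probe sets ranged from 0.12 to 1.34 and from 0.28 to 1.41 in those comparisons. Its genotype differences were -0.09 in Flk1+ and -0.02 in Flk1- cells, with probe sets from -0.76 to -0.09 and from -0.05 to 0.30. The insulin receptor gene Insr had -0.42 in Flk1+ and -0.41 in Flk1- cells. Its 3 probe sets ranged from -0.42 to 0.17 and from -0.41 to -0.22. The other binding proteins and partners, Igfbp1, Igfbp6, Igfbpl1 and Igfals, were below the floor on every array (0 of 4 genes had signal).

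The proteases held the largest differences outside the members. Pappa, the secreted protease that cuts IGFBP4 and IGFBP5, was at 4.61 in KO Flk1+ cells, against 3.19 in F/F Flk1+ cells, and at 2.92 in both KO Flk1- and F/F Flk1- cells. It was at least 2.67-fold higher in KO Flk1+ cells than in each of F/F Flk1+ and KO Flk1- cells. Its 3 probe sets differed by 0.62 to 1.83 between genotypes in Flk1+ cells and by -0.13 to 0.08 in Flk1- cells. Pappa and Igfbp5 were thus both highest in KO Flk1+ cells. Adam12, a metalloprotease whose human form cuts IGFBP3 and IGFBP5, was at 6.68 in KO Flk1+ cells, against 7.18 in F/F Flk1+ cells, and at 2.12 in KO Flk1- cells, against 4.52 in F/F Flk1- cells. It was at least 2.51-fold lower in KO than in F/F Flk1- cells, and higher in Flk1+ than in Flk1- cells by at least 11.2-fold in KO cells and by 2.66 on the log2 scale in F/F cells. Like Igfbp4 it was lowest in KO Flk1- cells, and it was highest in F/F Flk1+ cells as Igfbp4 was. Stc2, which encodes an inhibitor of PAPP-A, had genotype differences of 0.53 in Flk1+ and -0.26 in Flk1- cells, but its 3 probe sets ranged from -0.18 to 0.53 and from -0.26 to 0.25, so its direction is not settled in either fraction.

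Downstream of the receptor, and leaving out the member substrates such as Irs4, 1 listed gene was 2-fold apart between genotypes. Of 8 adaptor genes with signal, 0 were 2-fold apart by genotype in Flk1+ cells and 1 was in Flk1- cells, Dok4, an adaptor that docks on receptor tyrosine kinases, at 3.32 in KO and 4.34 in F/F cells (-1.02, and -0.92 in Flk1+ cells). Grb10, an adaptor that restrains IGF1R and insulin receptor signalling, had differences of 0.25 and -0.06. Its 3 probe sets ranged from 0.25 to 0.71 in Flk1+ cells and from -0.36 to -0.06 in Flk1- cells. Of 14 genes from PI3 kinase to AKT and mTOR, 0 were 2-fold apart in any of the 4 comparisons, with genotype medians of -0.06 in Flk1+ and -0.03 in Flk1- cells. Of 3 FoxO genes, Foxo4 had -0.64 and -0.63, although its 2 probe sets ranged from -0.64 to -0.07 and from -0.63 to -0.17. The IGF2 mRNA binding protein genes Igf2bp1 and Igf2bp3 differed between genotypes by -0.04 and -0.05 in Flk1+ cells and by -0.16 and -0.04 in Flk1- cells. In Flk1+ cells the 4 probe sets of Igf2bp1 ranged from -0.43 to -0.04 and the 4 of Igf2bp3 from -0.05 to 0.57. In Flk1- cells they ranged from -0.16 to 0.09 and from -0.04 to 0.0041. Among the genes with an IGFBP-type domain, Ccn2, a matricellular growth factor gene, was at 3.58 in KO Flk1+ and 4.88 in KO Flk1- cells (-1.30), and at 4.03 in F/F Flk1+ and 4.60 in F/F Flk1- cells (-0.56).

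**Figure D5:**
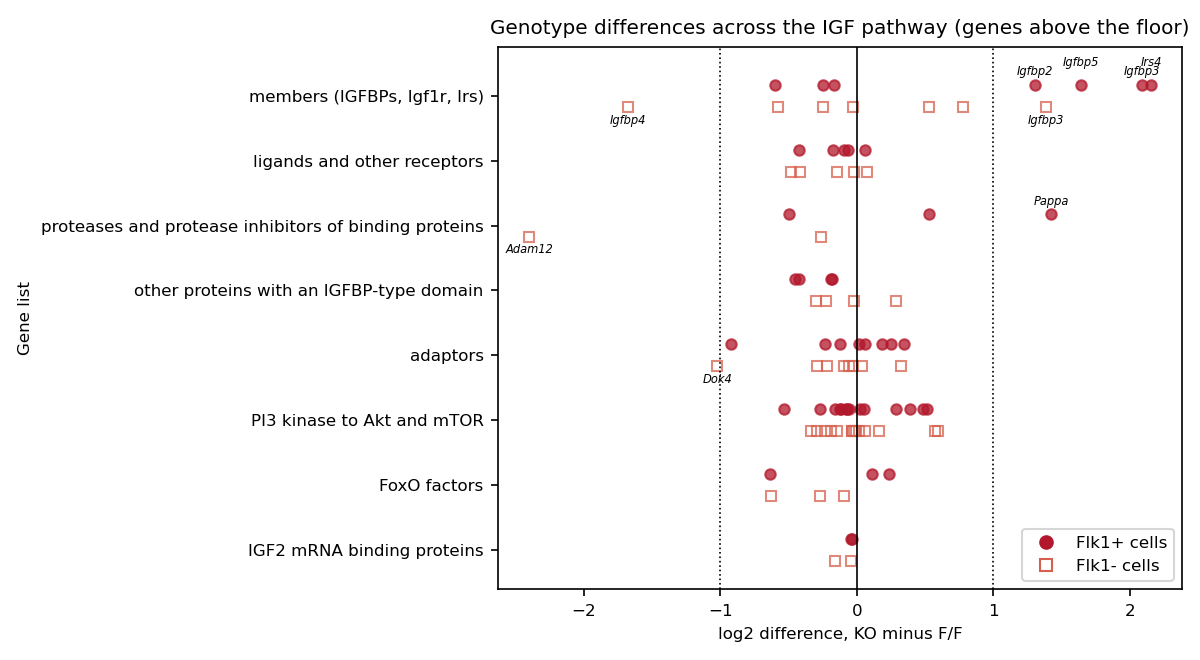
Log2 difference, KO minus F/F (x axis), of the genes above the floor in each IGF pathway list (y axis), with filled circles for Flk1+ cells, open squares for Flk1- cells and dotted lines at 2-fold, and with the names of genes past 2-fold. Pappa, Adam12 and Dok4 are the only genes outside the top line that lie past a dotted line, each in 1 fraction.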

How the data were processed

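Total RNA (50 ng in the amplification step, per the labels' protocols) from 4 sorted cell groups was amplified, labelled with biotin and hybridised to Affymetrix arrays, 1 per group. The authors deposited log2 expression values for 45141 probe sets. The submitters' processing notes name RMA and limma without a version or role. Here, 104 control probe sets were left out, and 28898 probe sets paired with 1 gene by the platform annotation were kept (551 had several genes, 15588 none). Each gene took its probe set of highest mean. Where 1 of 2 values lay under the floor, the fold was computed against the floor and is a lower bound. By rule, the text names all members, pathway genes that reached 2-fold in any comparison, and the 3 genes nearest in profile to each member with a range of at least 1. Other pathway and marker genes were named after their values were seen. Members and lists were chosen with earlier results of these data known.

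Differences were computed in Python 3.11.15 with numpy 2.4.6 and pandas 2.3.3. The alternatives were quantile normalization and cyclic loess (span 0.3, 3 rounds; limma 3.58.1 in R 4.3.3), median centring, the mean of the probe sets, leaving out _s_at and _x_at probe sets, other floors and other size rules. The counting of 2-fold genes was run on simulated data with differences well away from the cutoff, in genes well above the floor. That run checks the code and does not show how calls near the cutoff or the floor behave. Promoter sequences came from RefSeq (GRCm38.p6), and all 9 genes matched by symbol.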

Additional observations from a re-analysis of the deposited data

Results flagged for a closer look

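Igfbp5 was higher in KO than in F/F Flk1+ cells (6.94 against 5.31) and lower in KO than in F/F Flk1- cells (6.01 against 6.25), so its genotype differences of 1.64 and -0.25 have opposite signs, 1.89 apart. The same 4 values give sort differences of 0.94 in KO and -0.95 in F/F cells, also opposite in sign and 1.89 apart. Irs1 had sort differences of -0.26 in KO and 0.31 in F/F cells, -0.57 apart, with its 4 values at 3.32 to 3.92, not far above the floor of 3.19. With 1 array in each group neither difference between groups was tested.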

How the results depend on the processing

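No paired analysis was possible because each group has 1 array, and no array could be left out. The 7 members' values in the 4 comparisons and the difference of differences were recomputed under 6 alternatives, 210 values in all. Of these, 194 moved by less than the SD of the receptor genes, 16 moved by more, and 0 values past 2-fold changed sign. Many of the 194 could not move, so their number does not measure stability. No member's highest-mean probe set was an _s_at or _x_at set. Igfbp2, Igfbp3, Igfbp5 and Irs1 had 1 probe set each, which is its own mean. Raising values to the floor could change Igfbp3 alone. The cause was not tested unless given here. With values raised to the floor, Igfbp3 had 1.39 by genotype in Flk1+ cells and -0.63 by sort in F/F cells, which follows from its F/F Flk1+ value below the floor. With the mean of the probe sets, Irs4 had 1.36 by genotype in Flk1+ cells.

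The number of members past 2-fold kept within 1.5 times in 41 of 50 recounts. By sort in KO cells it was 1, and 2 after quantile normalization, after centring or after cyclic loess, and 3 at 1.5-fold. By genotype in Flk1- cells it was 2, and 1 at 3-fold. By sort in F/F cells it was 4, and 1 at 3-fold. For the difference of differences it was 3, and 1 with the mean of the probe sets, 5 at 1.5-fold and 1 at 3-fold. The gene added by another scaling was Igfbp5, which had 0.94 as deposited and up to 1.11. Centring moved the median of all genes by 0.15 in the KO sort comparison. Without replicates, variation between cultures could not be measured.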
